A study of Arabidopsis thaliana with 30 samples.

Results

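The 96 mitochondrion-encoded genes described here were all rows of the transcript abundance table whose ID starts with ATMG, out of 25300 genes in the table. They were measured in 30 poly(A)-selected RNA-seq libraries from whole 4-d-old Arabidopsis thaliana seedlings, with 3 libraries in each of 10 groups. The groups were the wild type Col-0 and 4 lines in the Col-0 background, each at 21 °C and at 27 °C. The line pif457 lacks the growth-promoting transcription factors PIF4, PIF5 and PIF7, hyl1-2 is a null allele of HYL1, which helps DCL1 to cut microRNAs from their precursors, dcl1-24/hyl1-2 carries in addition a dominant DCL1 allele that suppresses hyl1-2, and MIM156 expresses a decoy target of miR156 from the constitutive 35S promoter. After 5 d of stratification at 4 °C, all seedlings spent 2 d at 21 °C under continuous red light (50 µmol) and a further 2 d at either 21 or 27 °C, with collection at 96 h. Values are in CPM, a gene's read count scaled to the total of its library.

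Libraries held 18415138 to 27079748 reads, and reads on mitochondrial members numbered 3932 to 147776, or 0.0145% to 0.695% of a library. The summed level of 4 green cotyledon markers was 16600 to 43850 CPM in all groups, while 3 root hair markers summed to at most 38.6 CPM and 4 seed storage markers to at most 125.8 CPM. Among the targeted genes, PIF5 (AT3G59060) was at 5.22 ± 1.32 CPM in pif457 at 21 °C (SD, n = 3) against 63.2 ± 15.9 CPM in Col-0, and PIF7 (AT5G61270) at 0.983 ± 0.566 against 12.1 ± 2.4 CPM. PIF4 (AT2G43010) kept more of its reads, with 13.4 ± 1.1 against 27.7 ± 11.1 CPM at 21 °C and 54.3 ± 2.1 against 93.4 ± 17.0 CPM at 27 °C. The backbone of the decoy (AT3G09922) reached 44310 ± 12260 CPM in MIM156 at 21 °C against 0 in Col-0. HYL1 (AT1G09700) was lower in hyl1-2 than in Col-0 at 21 °C (2.84 ± 0.76 against 5.21 ± 0.65 CPM), but at 27 °C it was higher, at 16.4 ± 3.2 against 7.83 ± 1.44 CPM, and dcl1-24/hyl1-2 lay above Col-0 at both temperatures, at 7.09 ± 1.36 and 14.6 ± 2.1 CPM. The reads on HYL1 therefore did not bear out the labels of both dcl1-24/hyl1-2 groups and of hyl1-2 at 27 °C. Which part of HYL1 the allele interrupts was not looked up here, so these reads cannot decide whether the labels are right. The names hyl1-2 and dcl1-24/hyl1-2 stand below for the libraries labelled so.

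Mitochondria of plants keep a genome of their own, which encodes some subunits of the respiratory chain and of ATP synthase, factors of cytochrome c maturation, ribosomal proteins and ribosomal RNAs, while most mitochondrial proteins are made from nuclear genes and imported. Plant mitochondrial RNA is mostly not polyadenylated, and the tails that are added promote decay of the RNA rather than stability. A poly(A)-selected library thus samples a small share of this RNA. In bulk seedlings, fewer mitochondria or fewer cells rich in them cannot be told apart from less RNA per mitochondrion. Nor can any of these be told apart from a change in the share of this RNA that the selection kept.

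Near-identical copies in the nucleus limit what the reads on these members can show. The TAIR10.1 reference used here holds a long stretch of the mitochondrial genome inserted on chromosome 2. Nuclear genes with IDs from AT2G07660 to AT2G07840 are called genes of the insert below. They were picked by ID, and whether each of them lies in the insert was not checked. Of all 150-base windows of the mitochondrial genome, 65.1% occurred without a difference on a nuclear chromosome, 150 bases being the length of a read. All such windows of 15 of 38 protein-coding gene entries of the mitochondrial annotation had an exact nuclear match, and for 7 entries no window had one. Over such windows, a read taken alone cannot be assigned to the mitochondrion or to the insert. Reads came in pairs, and whether the mate would settle the place was not tested. Reads that match both places equally are lost where only unique matches are counted. The mitochondrial reference that the authors mapped to was not compared.

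The stretches of 2 members that fell widely are shown because they carry no difference at all in the reference used here. Even so, the authors' unique matches gave a mean of 5.27 CPM on ATMG00220 and 14.04 CPM on its copy AT2G07727. Whether the identity holds in the reference the authors counted on was not tested. ATMG00220 is annotated as apocytochrome b, the core protein of respiratory complex III, through the note of its copy AT2G07727, which aligned to the mitochondrial genome over 3243 bases at 100% identity. Its first 100 coding bases stand at positions 182759 to 182858 of the mitochondrial genome (minus strand) and at chr2:3450863-3450962 (plus strand).
cob, mitochondrion: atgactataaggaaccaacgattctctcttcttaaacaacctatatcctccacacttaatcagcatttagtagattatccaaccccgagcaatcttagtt
AT2G07727, chromosome 2: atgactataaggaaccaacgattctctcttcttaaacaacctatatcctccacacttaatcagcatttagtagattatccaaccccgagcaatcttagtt
The same held for ATMG00210, annotated as ribosomal protein L5, and its copy AT2G07725 over 1662 bases. Its first 100 coding bases stand at positions 185220 to 185319 of the mitochondrial genome (minus strand) and at chr2:3448402-3448501 (plus strand).
rpl5, mitochondrion: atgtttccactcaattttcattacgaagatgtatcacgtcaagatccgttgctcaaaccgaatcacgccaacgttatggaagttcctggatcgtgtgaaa
AT2G07725, chromosome 2: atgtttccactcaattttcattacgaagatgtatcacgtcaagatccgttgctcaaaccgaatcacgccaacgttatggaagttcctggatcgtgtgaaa

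Of 3 further members that the results turn on, each copy differed from the mitochondrial genome by 1 base over its longest alignment, shown in capitals with 30 bases on either side. ATMG01190, annotated as ATP synthase subunit 1, has the copy AT2G07698, which aligned over 2665 bases at 99.96% identity. The stretch shown covers positions 69168 to 69228 of the mitochondrial genome (minus strand) and chr2:3361898-3361958 (plus strand).
ATMG01190 region, mitochondrion: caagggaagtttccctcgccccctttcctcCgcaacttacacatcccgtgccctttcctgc
AT2G07698, chromosome 2: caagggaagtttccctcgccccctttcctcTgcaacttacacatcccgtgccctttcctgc
ATMG00590 carries the note cytochrome b/b6 protein through its copy AT2G07718, but the 5799 bases that aligned overlap nad4, a complex I gene, and not cob, so it is put in no class here. The stretch covers positions 203900 to 203960 (minus strand) and chr2:3429761-3429821 (plus strand).
ATMG00590 region, mitochondrion: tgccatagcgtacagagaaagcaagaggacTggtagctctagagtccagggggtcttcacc
AT2G07718, chromosome 2: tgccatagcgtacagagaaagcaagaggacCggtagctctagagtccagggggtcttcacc
ATMG01090 carries the note mitochondrial ATP synthase 9 through its copy AT2G07777, of which 1275 of 2150 bases aligned, at positions 65788 to 67062. No mitochondrial gene entry lies there and atp9 stands at 270961 to 271185, so this row is not shown to be atp9. The stretch covers positions 66907 to 66967 (minus strand) and chr2:3250515-3250575 (minus strand).
ATMG01090 region, mitochondrion: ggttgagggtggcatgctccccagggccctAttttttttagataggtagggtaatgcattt
AT2G07777, chromosome 2: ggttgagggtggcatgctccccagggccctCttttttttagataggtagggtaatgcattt

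Reads on the members were very unevenly spread. ATMG00020 and ATMG01390, which carry no name in the annotation used here, took 87.4% of all mitochondrial reads together, between 73.4% and 91.5% in single libraries. Of the 96 members, 36 had a read in every library. A level of at least 1 CPM in at least 3 libraries, the filter for testing, was met by 49 members, and the 47 others never exceeded 1.98 CPM and held 0.347% of mitochondrial reads. A member can have passed this filter through the group in which it was high. Notes on nuclear copies gave 21 members a name, of which 15 passed the filter, and the rest are given by ID.

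By mean over all libraries, the 5 members of highest level were ATMG00020 (1350 CPM), ATMG01390 (476 CPM), ATMG00030 (110.7 CPM), ATMG00090 (36.0 CPM) and ATMG00080 (15.7 CPM). CPM is not scaled by length, so these values rank reads and not transcripts. ATMG00030 followed ATMG00020 closely, with a ratio between 0.0534 and 0.103 in all 30 libraries, and ATMG00080 followed ATMG00090 at 0.333 to 0.615. ATMG01390 was looser, at 0.263 to 1.35 of ATMG00020. Whether these rows overlap each other on the genome was not tested.

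Members given a function by the notes on nuclear copies were all low. The 5 members of highest level have no such note, so what they encode is not given here. Among subunits of ATP synthase, which makes ATP from the proton gradient, the mean over libraries was 11.2 CPM for ATMG01190 (subunit 1), 1.38 CPM for ATMG00410 (subunit 6-1) and 1.20 CPM for ATMG00480 (F0 subunit 8). For the respiratory chain it was 5.27 CPM for ATMG00220 (apocytochrome b), 2.60 CPM for ATMG00990 and 1.54 CPM for ATMG01320 (NADH dehydrogenase 3 and 2B, of complex I) and 0.469 CPM for ATMG00730 (cytochrome oxidase subunit 3). Ribosomal proteins that passed the filter stood at 3.78 CPM (ATMG00210, L5), 2.60 CPM (ATMG00980, S12/S23) and 1.95 CPM (ATMG00290, S4). ATMG00560, noted as an OB-fold nucleic acid-binding protein, has a copy that overlaps the ribosomal protein gene rpl2 and was at 1.97 CPM, and ATMG00180, noted as cytochrome c biogenesis 452, at 1.36 CPM. The copies of ATMG01280 (cytochrome oxidase II-like, 0.536 CPM), ATMG00590 (0.527 CPM) and ATMG01090 (0.544 CPM) align away from the genes their notes point to. That of ATMG01280 lies at 83519 to 85416 with no gene entry, while cox2 is at 6264 to 8389. Whether these rows hold parts of the genes in their notes was not tested. Rows of nuclear copies of members held reads as well, with 35.6 CPM on AT2G07698 (ATMG01190), 14.04 CPM on AT2G07727 (ATMG00220) and 7.23 CPM on AT2G07725 (ATMG00210).

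Summed over the 96 members, the mitochondrial level differed from Col-0 by up to 11.7-fold between genotypes and by at most 2.65-fold between temperatures within a genotype. In Col-0 at 21 °C the 3 libraries stood at 2711, 3207 and 1655 CPM, and in pif457 at 321, 362 and 263 CPM, without overlap. At 27 °C, Col-0 stood at 2290, 2190 and 1461 CPM and pif457 at 197, 160 and 145 CPM. The ratio of geometric means was 7.77-fold lower in pif457 at 21 °C and 11.7-fold lower at 27 °C (exact permutation test on log2 sums, two-sided, n = 3 against 3, p = 0.1 each, the smallest this design allows).

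The line dcl1-24/hyl1-2 was the next lowest, at 552, 1048 and 992 CPM at 21 °C and at 233, 368 and 357 CPM at 27 °C, all below Col-0 at the same temperature. In hyl1-2 at 21 °C the sum was 6933, 6948 and 4293 CPM, above every Col-0 library, and 2.43-fold higher as a ratio of geometric means. MIM156 stood at 4118, 6357 and 2359 CPM at 21 °C, overlapping Col-0. At 27 °C, hyl1-2 (1577, 3562 and 2018 CPM) and MIM156 (1527, 2542 and 1893 CPM) both overlapped Col-0. Against hyl1-2, the sum in dcl1-24/hyl1-2 was 7.12-fold lower at 21 °C and 7.18-fold lower at 27 °C, again with p = 0.1 in the exact permutation test (n = 3 against 3).

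Every genotype had a lower mean sum at 27 °C than at 21 °C. The groups did not overlap in pif457 (1.88-fold lower), hyl1-2 (2.63-fold) and dcl1-24/hyl1-2 (2.65-fold), each at p = 0.1 in the exact permutation test with n = 3 against 3. They overlapped in Col-0 (1.25-fold lower, exact p = 0.4) and MIM156 (2.03-fold lower, exact p = 0.2). The 2 members of most reads set part of these values: without ATMG00020 and ATMG01390, the log2 change with warmth in pif457 was -0.28 instead of -0.91, and that of hyl1-2 against Col-0 at 21 °C was 0.54 instead of 1.28.

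**Figure D1:**
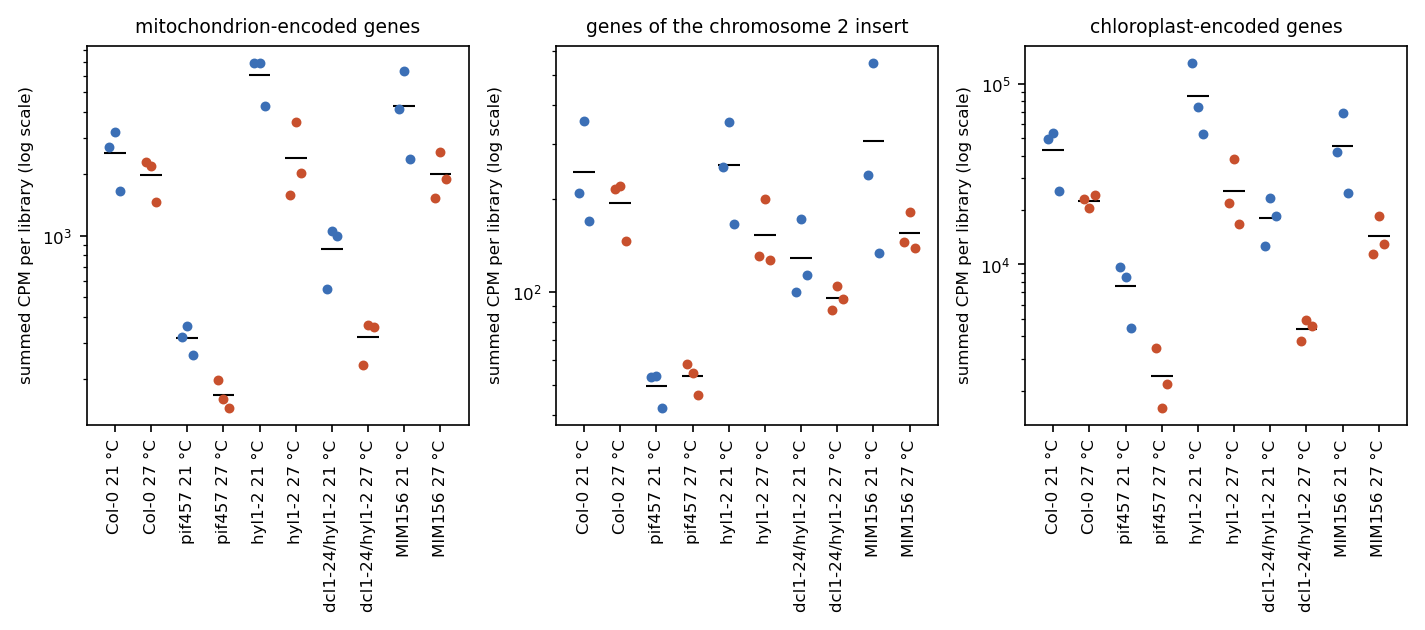
Summed CPM per library on a log scale for the mitochondrion-encoded genes, the genes of the chromosome 2 insert and the chloroplast-encoded genes, by group; points are libraries (blue, 21 °C; orange, 27 °C) and bars group means. The pif457 libraries lie lowest in all 3 panels at 21 °C, with mitochondrial sums of 263 to 362 CPM against 1655 to 3207 CPM in Col-0.

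Chloroplast-encoded RNA, measured in the same libraries, moved along with the mitochondrial sum. Its 128 genes summed to 42836 ± 15091 CPM in Col-0 and 7557 ± 2760 CPM in pif457 at 21 °C (SD, n = 3), and to 22550 ± 1954 CPM and 2418 ± 939 CPM at 27 °C. The ratio of chloroplast to mitochondrial reads varied from 6.81 to 30.3 across libraries. The 107 genes of the chromosome 2 insert, as picked by ID, summed to 244.4 ± 99.2 CPM in Col-0 and 49.6 ± 6.4 CPM in pif457 at 21 °C. The 3 root hair markers summed to 4.65 to 35.1 CPM in Col-0 and to 16.4 to 38.6 CPM in pif457 at 21 °C. The part of any of these in the results on the members was not tested.

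The comparison of pif457 with Col-0 asks what changes without PIF4, PIF5 and PIF7, and at 21 °C it had the most members called of the 19 comparisons. In a limma fit over 21780 genes, 32 of the 49 members tested fell (65.3%) and none rose, against 2.49% of all genes that fell and 4.21% that rose. A member is said to have risen or fallen where its Benjamini-Hochberg adjusted p was under 0.05 both with the deposited library totals and after median-of-ratios scaling. Changes are given on the log2(CPM + 0.5) scale relative to the median gene. This scale understates changes of low members. The SE and adjusted p given with a change belong to the fitted change before the median gene is subtracted. Where the median gene shifted, a printed change and its p therefore measure different quantities. Here the median gene shifted by 0.13. The median member changed by -1.70.

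ATMG00020 was at 1763, 2024 and 1023 CPM in Col-0 and at 136, 159 and 141 CPM in pif457. Its fall of 3.54 ± 0.39 (SE, adjusted p = 2.6e-05) was among the 6 largest, with those of ATMG00090 (-3.87 ± 0.59), ATMG00070 (-3.73 ± 0.62), ATMG00080 (-3.70 ± 0.55), ATMG01190 (-3.68 ± 0.50) and ATMG00030 (-3.62 ± 0.41), whose adjusted p ranged up to 0.00095 for ATMG00070. ATMG01190, the ATP synthase subunit, was at 14.3, 38.6 and 13.2 CPM in Col-0 and at 0.942, 1.15 and 1.61 CPM in pif457. ATMG01390, the member of next most reads, fell less, by 2.15 ± 0.36 (adjusted p = 0.0013), from 608, 629 and 377 CPM to 148, 157 and 92.8 CPM. For these 7 members the libraries of the genotypes did not overlap. The members not named in this or the next paragraph that fell ranged from -2.97 (ATMG00510) to -1.45 (ATMG01350).

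The falls included members noted for complex III, complex I, ribosomal proteins and ATP synthase. In complex III, ATMG00220 fell by 3.03 ± 0.42 (adjusted p = 0.00012), from 7.997, 15.1 and 6.88 CPM to 0.754, 0.958 and 0.804 CPM. In complex I, ATMG01320 fell by 1.99 ± 0.41 and ATMG00990 by 1.92 ± 0.51 (adjusted p = 0.0048 and 0.027). The 3 tested members with a ribosomal protein note fell, ATMG00210 by 2.57 ± 0.41, ATMG00290 by 2.45 ± 0.53 and ATMG00980 by 1.79 ± 0.51. In ATP synthase, ATMG00480 and ATMG00410 fell as ATMG01190 did, by 1.80 ± 0.37 and 1.67 ± 0.42. ATMG00560, on rpl2, fell by 1.70 ± 0.43, and ATMG01280, of no sure class, by 1.24 ± 0.33. The named members that did not pass the test were ATMG00180 (-1.15 ± 0.36, adjusted p = 0.066), ATMG00730 (-1.21 ± 0.37, adjusted p = 0.061), ATMG00590 and ATMG01090.

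Of the 32 members, 17 kept their call when each library of the comparison was left out in turn. By adjusted p with deposited totals alone the count was also 32 (8.99% of all genes were called so), and it dropped to 19 without Col-0 replicate 2, the Col-0 library with the highest mitochondrial sum.

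At 27 °C, 27 of the 49 members fell in pif457 relative to Col-0 (55.1%, against 8.52% of all genes) and none rose (4.22% of all genes). Here the median gene shifted by -0.13. By adjusted p with deposited totals, 31 members and 17.2% of all genes were called, and 4 of these members were not called after median-of-ratios scaling. The largest falls were those of ATMG00030 (-4.16 ± 0.41, adjusted p = 2.75e-07) and ATMG00020 (-4.03 ± 0.39, adjusted p = 2.2e-07), followed by ATMG00090 (-3.70 ± 0.59), ATMG00080 (-3.51 ± 0.55) and ATMG00070 (-3.51 ± 0.62). ATMG00020 was at 1467, 1408 and 850.1 CPM in Col-0 and at 68.5, 74.2 and 59.3 CPM in pif457. Of the named members, ATMG00220 fell by 2.65 ± 0.42, ATMG01190 by 2.63 ± 0.50, ATMG01320 by 2.10 ± 0.41 and ATMG00290 by 2.08 ± 0.53. The others not named at this temperature ranged from -2.59 (ATMG01390) to -0.90 (ATMG01350). The call was kept without each library in turn for 19 of the 27.

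ATMG01320, a complex I gene, was at 2.21, 2.25 and 1.34 CPM in Col-0 at 27 °C, and in pif457 it was listed at 0 in 2 libraries and at 0.0393 CPM in the other. A level under 3 reads, 0.111 to 0.163 CPM depending on the library, was taken as the floor of what counting can show here. Values for ATMG00480 (-0.74 ± 0.37), ATMG00730 (-0.64 ± 0.37) and ATMG01280 (-0.29 ± 0.33) lay below the median gene without passing the test (adjusted p = 0.1, 0.16 and 0.43). Against Col-0 at 27 °C, ATMG00180 (-1.02 ± 0.36) and ATMG00590 (-0.86 ± 0.30) fell under limma (adjusted p = 0.024 and 0.021), but neither was called by edgeR.

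**Figure D2:**
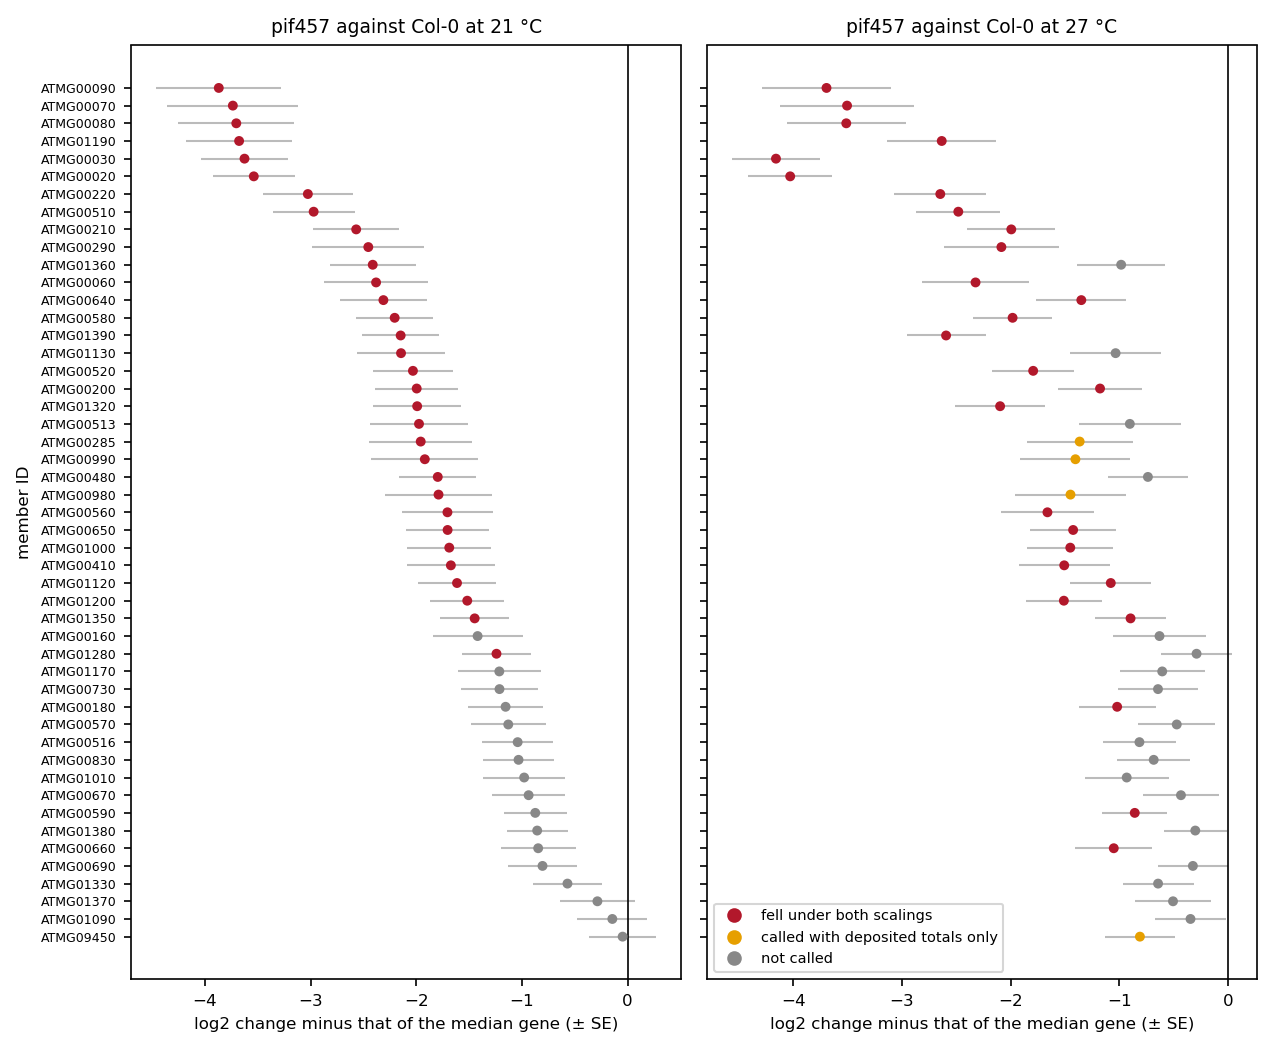
Change of the 49 members tested in pif457 against Col-0, with 21 °C in the left panel and 27 °C in the right panel, on the log2(CPM + 0.5) scale relative to the median gene; bars are the SE of the fit and members are ordered by their change at 21 °C. All 49 points lie below 0 in both panels, and 32 and 27 of them, in red, fell under both scalings.

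Warmth is the contrast of 27 with 21 °C within a genotype. In no genotype was the share of members that rose with it above the share of all genes that rose. In Col-0, 4 of 49 rose (8.16%, against 8.54% of all genes) and 2 fell (4.08%, against 4.63%), shares close to the background. Among those that rose was ATMG09450, at 0.325, 0.446 and 1.02 CPM at 21 °C and 2.17, 3.74 and 3.29 CPM at 27 °C (1.45 ± 0.32, adjusted p = 0.00019). ATMG01090 went from 0.093, 0.0992 and 0.153 CPM to 1.34, 1.15 and 0.556 CPM (0.99 ± 0.33, adjusted p = 0.0051). ATMG01370 (0.98 ± 0.35) and ATMG00590 (0.83 ± 0.30) also rose, the last not under edgeR. The members that fell were ATMG01360 (-1.60 ± 0.41, adjusted p = 0.015), from 4.70, 9.57 and 4.74 CPM to 2.00, 2.78 and 1.62 CPM, and ATMG00640 (-1.44 ± 0.41, adjusted p = 0.034).

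The median gene of this contrast shifted by 0.27, and relative to it 40 of the 49 members lay below 0. Those of most reads did not pass the test in Col-0, ATMG00020 at -0.62 ± 0.39 (adjusted p = 0.52). By adjusted p with deposited totals, 8 members and 29.7% of all genes were called, and this count was 4 without Col-0 21 °C replicate 2 and 5 without Col-0 21 °C replicate 3, Col-0 27 °C replicate 1 or Col-0 27 °C replicate 3. ATMG09450, ATMG01090 and ATMG00590 kept their call without each library in turn.

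In pif457, 3 members rose with warmth (6.12%, against 7.47% of all genes) and none fell (7.65% of all genes), with 10 members at an unadjusted p under 0.05 and 6 called by edgeR. ATMG01380 rose by 1.11 ± 0.29 (adjusted p = 0.0069), from 0.377, 0.144 and 0.189 CPM to 1.51, 1.06 and 0.775 CPM. ATMG00690 rose by 1.10 ± 0.32 and ATMG00590 by 0.85 ± 0.30, the latter from 0.0471 and 0.0479 CPM and a library listed at 0, all below 3 reads. None of these 3 calls, against 15.7% of all genes by adjusted p, was kept without each library in turn: no member was called without pif457 27 °C replicate 1, and 1 was called without pif457 21 °C replicate 2 or 3 or without pif457 27 °C replicate 2. ATMG00020 was at -1.11 ± 0.39 (adjusted p = 0.058).

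In hyl1-2, dcl1-24/hyl1-2 and MIM156 the members that fell with warmth took a larger share than in the table as a whole. In hyl1-2, 14 fell (28.6%, against 8.74% of all genes) and 1 rose (14.3% of all genes). ATMG01390 fell most, by 1.87 ± 0.36 (adjusted p = 0.0019), from 1893, 1403 and 1105 CPM to 325, 786 and 424 CPM. It was followed by ATMG00220 (-1.78 ± 0.42), ATMG00030 (-1.66 ± 0.41), ATMG00020 (-1.66 ± 0.39) and ATMG00290 (-1.64 ± 0.53). The median gene shifted by 0.28. By adjusted p with deposited totals, 16 members and 40.6% of all genes were called, with a count of 5 without hyl1-2 27 °C replicate 1 and 6 without hyl1-2 21 °C replicate 2, and ATMG01390, ATMG00570 and ATMG09450 kept their call throughout.

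Some other measures were also lower with warmth, though not each in every line. The 4 cotyledon markers in hyl1-2 summed to 32510 to 37130 CPM at 21 °C and to 28070 to 30990 CPM at 27 °C. The ranges for dcl1-24/hyl1-2 were 35050 to 43850 and 21790 to 25960 CPM, and for MIM156 29110 to 38550 and 16600 to 18010 CPM. All these fell without overlap, as did Col-0 (35760 to 41950 against 24240 to 26760 CPM), while pif457 overlapped. Root hair markers in hyl1-2 summed to 22.3 to 32.9 CPM at 21 °C and to 1.71 to 5.52 CPM at 27 °C, without overlap. For dcl1-24/hyl1-2 their range was 4.39 to 37.8 CPM at 21 °C and 6.06 to 20.4 CPM at 27 °C, and in MIM156 it was 12.9 to 19.2 CPM and 9.84 to 13.8 CPM, both with overlap. Of the 115 chloroplast-encoded genes tested, 24 (20.9%) fell with warmth in hyl1-2, 61 (53%) in dcl1-24/hyl1-2 and 22 (19.1%) in MIM156. Of the 46 insert genes tested, 8 (17.4%), 7 (15.2%) and 6 (13%) fell in these lines. Among all genes, the shares that fell were 8.74%, 3.28% and 3.54%. The part of these measures in the falls of the members was not tested.

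In dcl1-24/hyl1-2, 8 members fell with warmth (16.3%, against 3.28% of all genes) and 1 rose (6.48% of all genes). The apocytochrome b member ATMG00220 fell by 2.02 ± 0.42 (adjusted p = 0.0042), from 2.87, 4.74 and 3.58 CPM to 0.264, 1.38 and 0.982 CPM. ATMG00070 (-1.99 ± 0.62), ATMG00090 (-1.97 ± 0.59), ATMG00080 (-1.93 ± 0.55) and ATMG00030 (-1.90 ± 0.41) made up the 5 largest falls, and the call of ATMG00070 was lost with either other pseudocount, without the filter and under edgeR. The median gene shifted by 0.32. By adjusted p with deposited totals, 11 members and 30.6% of all genes were called, with a count of 5 without dcl1-24/hyl1-2 27 °C replicate 1 and 6 without dcl1-24/hyl1-2 21 °C replicate 2, and ATMG00020, ATMG00220 and ATMG09450 kept their call.

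In MIM156, 9 members fell with warmth (18.4%, against 3.54% of all genes) and 2 rose (4.08%, against 8.57%). ATMG01120 fell by 2.08 ± 0.37 (adjusted p = 0.00077), from 2.12, 4.56 and 1.78 CPM to 0.47, 0.927 and 0.0994 CPM, and ATMG00510 (-1.73 ± 0.39), ATMG01190 (-1.68 ± 0.50), ATMG00220 (-1.65 ± 0.42) and ATMG01350 (-1.51 ± 0.32) followed. ATMG01090 rose by 1.02 ± 0.33 (adjusted p = 0.0021), from 0.318 and 0.215 CPM and a library listed at 0 to 1.36, 1.08 and 1.24 CPM. The median gene shifted by 0.36. With deposited totals alone, 12 members and 37.8% of all genes were called, with a count of 5 without MIM156 21 °C replicate 2, 6 without MIM156 27 °C replicate 1, 7 without MIM156 27 °C replicate 3 and 20 without MIM156 21 °C replicate 3. ATMG01090, ATMG01120 and ATMG09450 kept their call.

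ATMG09450 rose with warmth in Col-0, hyl1-2, dcl1-24/hyl1-2 and MIM156. In hyl1-2 it went from 1.29, 0.869 and 0.793 CPM to 4.35, 2.93 and 2.19 CPM (0.99 ± 0.32, adjusted p = 0.0027). In dcl1-24/hyl1-2 it went from 0.892, 1.53 and 0.505 CPM to 6.54, 2.89 and 3.35 CPM (1.35 ± 0.32), and in MIM156 from 0.849, 1.03 and 0.748 CPM to 4.75, 2.58 and 2.34 CPM (1.03 ± 0.32). In pif457 its values were 0.518, 0.527 and 0.851 CPM against 1.42, 0.904 and 1.77 CPM, also without overlap, and the change did not pass the test. The ID carries no name in the annotation used here.

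**Figure D3:**
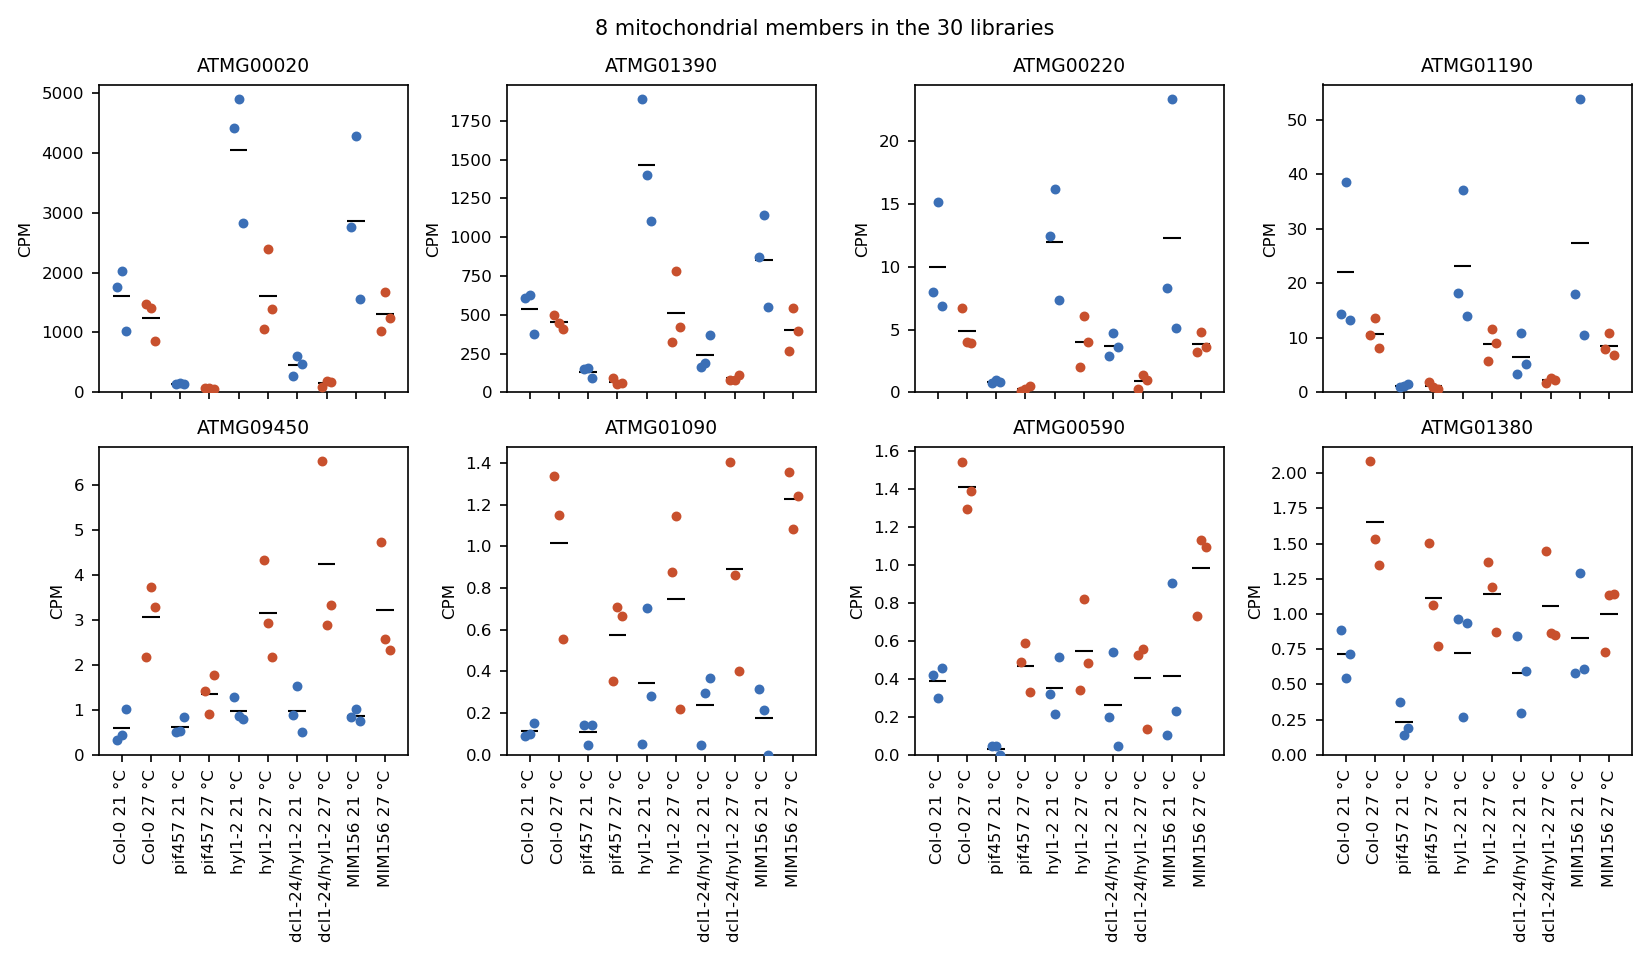
CPM of 8 members in the 30 libraries by group, on linear axes from 0; points are libraries (blue, 21 °C; orange, 27 °C) and bars group means. ATMG00020, ATMG01390, ATMG00220 and ATMG01190 in the upper row have their lowest values in pif457 and in warm dcl1-24/hyl1-2 libraries, whereas ATMG09450, ATMG01090, ATMG00590 and ATMG01380 in the lower row have higher means at 27 °C in all 5 genotypes.

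Against Col-0 at 21 °C, hyl1-2 had 3 members that rose (6.12%, against 8.03% of all genes) and none that fell (9.92% of all genes), so the share was no larger than in the table. They were ATMG01390, ATMG00020 and ATMG00030, members of most reads. ATMG00020 was at 4418, 4894 and 2824 CPM in hyl1-2 and rose by 1.45 ± 0.39 (adjusted p = 0.018), ATMG01390 by 1.54 ± 0.36 (adjusted p = 0.0085) and ATMG00030 by 1.43 ± 0.41 (adjusted p = 0.025). ATMG00090, in contrast, was at 50.4, 50.0 and 19.9 CPM against 36.8, 113.3 and 40.7 CPM in Col-0, with overlap. With deposited totals alone, under which 19.4% of all genes were called, the count was again 3, and ATMG01390 alone was called without Col-0 21 °C replicate 3, without hyl1-2 21 °C replicate 1 or without hyl1-2 21 °C replicate 2. At 27 °C no member was called between hyl1-2 and Col-0 (limma; 4 at an unadjusted p under 0.05, none by edgeR; 4.39% of all genes by adjusted p alone), against 1.22% of all genes that rose and 2.61% that fell. With the replicate block, or without hyl1-2 27 °C replicate 2, 1 member was called.

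In dcl1-24/hyl1-2 against Col-0 at 21 °C, ATMG00020 (-1.93 ± 0.39, adjusted p = 0.021) and ATMG00030 (-1.85 ± 0.41, adjusted p = 0.042) fell and none rose (4.08% of members fell, against 0.349% of all genes, and 0.344% of all genes rose). ATMG00020 was at 276, 609 and 477 CPM. With replicate number as a block, whose pairing was borne out over all genes for this contrast, 5 members were called. With deposited totals alone (0.845% of all genes called), none was called without Col-0 21 °C replicate 1, Col-0 21 °C replicate 2 or dcl1-24/hyl1-2 21 °C replicate 1, and 1 without dcl1-24/hyl1-2 21 °C replicate 2.

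At 27 °C, 11 members fell in dcl1-24/hyl1-2 against Col-0 (22.4%, against 0.941% of all genes) and none rose (0.579% of all genes), and 18 were called with the replicate block. ATMG00030 fell by 3.36 ± 0.41 and ATMG00020 by 3.20 ± 0.39 (adjusted p = 7.7e-05 each), the latter to 95.0, 189 and 175 CPM. ATMG01390 (-2.49 ± 0.36), ATMG01190 (-2.20 ± 0.50) and ATMG00220 (-2.19 ± 0.42) completed the 5 largest falls. With deposited totals alone (2.07% of all genes called), leaving out any 1 of the 6 libraries brought the count to between 4 and 7, and ATMG00020, ATMG00030, ATMG01200 and ATMG01390 kept their call throughout. The median gene shifted by 0.16.

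The contrast of dcl1-24/hyl1-2 with hyl1-2 asks what the suppressor allele changes. At 21 °C, 13 members fell (26.5%, against 8.90% of all genes) and none rose (13.9% of all genes). ATMG00020 fell by 3.35 ± 0.39 (adjusted p = 7.2e-06), ATMG00030 by 3.26 ± 0.41 and ATMG01390 by 2.81 ± 0.36, followed by ATMG01190 (-1.95 ± 0.50) and ATMG00520 (-1.74 ± 0.38). With deposited totals alone (31.5% of all genes called), the count was 5 without hyl1-2 21 °C replicate 2 and 8 without dcl1-24/hyl1-2 21 °C replicate 1. At 27 °C, 8 fell (16.3%, against 1.53%) and none rose (2.81% of all genes), and 16 were called with the replicate block. ATMG00020 fell by 3.59 ± 0.39 (adjusted p = 6.25e-06), ATMG00030 by 3.51 ± 0.41, ATMG01390 by 2.63 ± 0.36, ATMG00210 by 2.10 ± 0.41 and ATMG01190 by 1.96 ± 0.50. With deposited totals alone (11.7% of all genes called), the count was 4 without hyl1-2 27 °C replicate 2 or without dcl1-24/hyl1-2 27 °C replicate 1. The median gene shifted by 0.17 and 0.22.

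Hardly any member was called between MIM156 and Col-0. At 21 °C no member was called (limma; 1 at an unadjusted p under 0.05, none by edgeR), against 12.3% of all genes that rose and 12.6% that fell, and 25.4% that were called by adjusted p alone. Without MIM156 21 °C replicate 2 the count was 3, and without MIM156 21 °C replicate 3 it was 1. At 27 °C, ATMG01200 fell by 1.01 ± 0.35 (adjusted p = 0.0495; 2.04% of members, against 10.4% of all genes) and none rose (12.8% of all genes). Its values were 1.88, 2.64 and 1.58 CPM in Col-0 and 0.574, 1.03 and 0.895 CPM in MIM156, without overlap. The call was lost under edgeR, with nuclear totals, with a pseudocount of 0.1, and without any 1 of the 6 libraries (26.7% of all genes were called by adjusted p alone). The comparisons with Col-0 share its libraries at each temperature.

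Whether the response to warmth differed from that of Col-0 was tested as an interaction for each line. None of the 49 members was called by limma or edgeR in any of the 4 tests, with 1 (pif457), 5 (hyl1-2), 3 (dcl1-24/hyl1-2) and 2 (MIM156) at an unadjusted p under 0.05. Over all genes, 2.78%, 4.32%, 0% and 1.63% were called. The smallest p was that of ATMG01200 in MIM156 (-1.64 ± 0.49, adjusted p = 0.114 in the limma fit). Leaving out hyl1-2 27 °C replicate 2 or Col-0 21 °C replicate 1 gave 1 call each, for hyl1-2 and MIM156. So the wider falls in hyl1-2, dcl1-24/hyl1-2 and MIM156 than in Col-0 were not shown to differ from it.

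**Figure D4:**
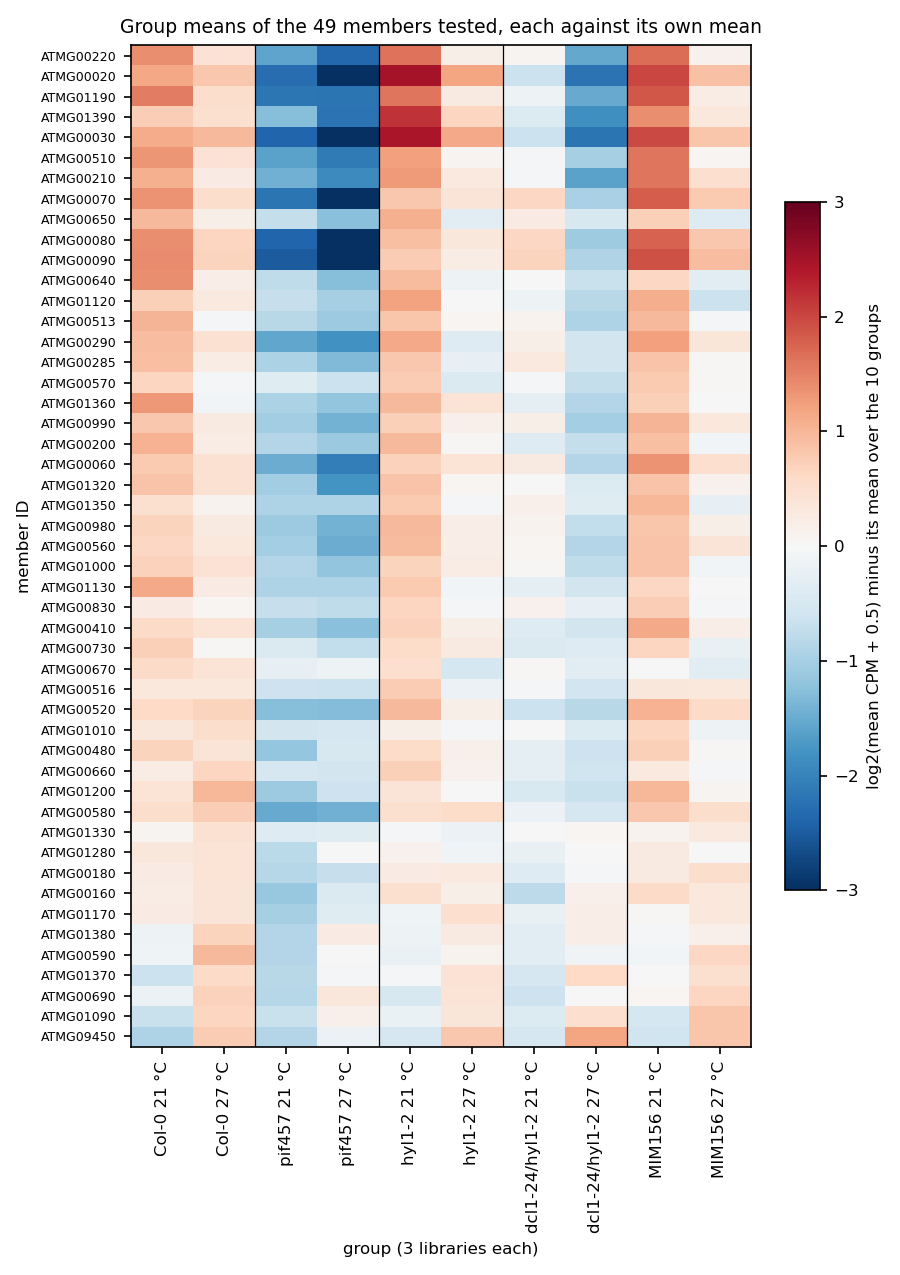
Group means of the 49 members tested as log2(mean CPM + 0.5) minus the member's mean over the 10 groups, colour capped at 3 units; rows are members, ordered by their difference between 27 and 21 °C, and columns are groups of 3 libraries. The pif457 columns hold the lowest value of 45 members, 30 at 27 °C and 15 at 21 °C, and hyl1-2 and MIM156 at 21 °C hold the highest of 10 and 20.

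Members differed in how far their level ranged between groups. Among those whose lowest group mean was above the floor of 3 reads, ATMG00020 ranged 60.1-fold (67.4 CPM in pif457 at 27 °C to 4045 CPM in hyl1-2 at 21 °C), ATMG00030 59.3-fold, ATMG00070 58.5-fold and ATMG00220 43.5-fold (0.281 to 12.2 CPM, highest in MIM156 at 21 °C). ATMG01390 ranged 21.1-fold. The highest group was MIM156 at 21 °C for 20 of the 49 members tested and hyl1-2 at 21 °C for 10, and ATMG09450 was highest in the warm dcl1-24/hyl1-2 group (4.26 ± 1.99 CPM).

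The genes of the chromosome 2 insert gave counts of the same order. Of 46 tested, 28 fell in pif457 against Col-0 at 21 °C (60.9%, against 2.49% of all genes, median -1.53). At 27 °C, 27 fell (58.7%, against 8.52% of all genes, median -1.30). AT2G07698, the copy of ATMG01190, fell by 4.26 ± 0.52 at 21 °C and 2.67 ± 0.52 at 27 °C, and AT2G07727, the copy of ATMG00220, by 3.22 ± 0.47 and 3.21 ± 0.47. Of 115 chloroplast-encoded genes tested, 104 (90.4%) and 93 (80.9%) fell in the same contrasts (medians -3.28 and -3.08).

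Nuclear genes whose products work in mitochondria were read from lists beside the members. Of 24 nuclear-encoded respiratory subunits tested, 5 rose in pif457 against Col-0 at 21 °C (20.8%, against 4.21% of all genes; median 0.12) and none fell (2.49% of all genes), and at 27 °C 2 fell (8.33%, against 8.52%; median -0.09). With warmth, 17 of the 24 fell in pif457 (70.8%, against 7.65% of all genes) and 11 in hyl1-2 (45.8%, against 8.74%), while 1 rose in Col-0 (4.17%, against 8.54%). In the interaction with Col-0, 3 of the 24 were called for pif457 with deposited totals (2.78% of all genes) and 1 for hyl1-2 (4.32%). After median-of-ratios scaling as well, 0 and 1 were called, so most of these falls were not shown to differ from Col-0. Another list held 31 genes of mitochondrial gene expression and RNA turnover, such as RNA polymerases, splicing factors and nucleases. Their median change in pif457 against Col-0 was -0.04 at 21 °C and -0.12 at 27 °C. In hyl1-2 against Col-0 at 21 °C, 7 of them fell (22.6%, against 9.92% of all genes) and 1 rose (3.23%, against 8.03%). In dcl1-24/hyl1-2 against hyl1-2 at 21 °C, 9 rose (29%, against 13.9%). AT1G68990, a phage-type mitochondrial RNA polymerase, was lower in hyl1-2 than in Col-0 at 21 °C (-0.67 ± 0.23, adjusted p = 0.023) and higher in dcl1-24/hyl1-2 than in hyl1-2 (0.85 ± 0.23, adjusted p = 0.0018).

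Of 11 genes tested that respond to mitochondrial stress or serve alternative respiration, 1 rose in pif457 against Col-0 at 21 °C (9.09%, against 4.21% of all genes), and at 27 °C 1 rose (against 4.22%) and 3 fell (27.3%, against 8.52%). The 1 at 21 °C was AOX1A (AT3G22370), the alternative oxidase that bypasses complexes III and IV, which rose by 0.56 ± 0.19 (adjusted p = 0.018). AOX1A also rose with warmth in Col-0 (0.54 ± 0.19), dcl1-24/hyl1-2 (0.52 ± 0.19) and MIM156 (0.66 ± 0.19).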

How the data were processed

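Poly(A)-selected RNA from 30 libraries (5 genotypes, 2 temperatures, 3 biological replicates) was sequenced by the authors as 150-base pairs, mapped with STAR 2.7.7a to Araport11 and counted from unique matches with featureCounts 2.0.1. Strandedness is not stated there. The deposited abundance sheet is named FPKM, but each column summed to 999904 to 999960 CPM and all values were whole reads within a tolerance of 0.001, so the authors' values were read as CPM and not scaled by length. Totals were 18415138 to 27079748 reads. A sheet of the authors' own comparisons (fold changes and p-values) was not used.

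Genes at 1 CPM or more in at least 3 libraries (21780 of 25300) were fitted on log2(CPM + 0.5) with limma 3.58.1 (R 4.3.3; trend, robust, 1 mean per group over all 30 libraries), with Benjamini-Hochberg adjustment at 0.05. A call also had to hold after median-of-ratios scaling. Summed levels were compared with exact two-sided permutation tests. The fit was tested on simulated data. Alternatives were pseudocounts of 0.1 and 2, no filter, nuclear totals, median-of-ratios scaling, edgeR 4.0.16 on the recovered reads, a replicate block and leaving out each library. Over all genes tested, same-numbered libraries deviated together (every correlation above 0.1) for dcl1-24/hyl1-2 against Col-0 and against hyl1-2 at both temperatures. The same held for hyl1-2 against Col-0 at 27 °C, pif457 against Col-0 at 21 °C and warmth in Col-0. Over the members alone it did not always hold. For dcl1-24/hyl1-2 against Col-0 at 27 °C those correlations were -0.153, 0.334 and -0.026.

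Names came from notes on nuclear copies in the RefSeq annotation of TAIR10.1 (35 of 96 IDs had such a copy), aligned with BLAST 2.17.0. Members of a named function that passed the filter, the 5 of highest level, and the 5 largest rises and falls among the called in each comparison are named; others were named after their values were seen. The members and gene lists were chosen with earlier results of these data known.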

Additional observations from a re-analysis of the deposited data

How the results depend on the processing

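Of the settings tried for the counts of members called, 209 stayed within 1.5 times, 42 gave fewer and 20 gave more; the causes were not tested. With a pseudocount of 0.1, 5 members were called for warmth in Col-0 (8 in the fit reported) and 5 for warmth in pif457 (3). With a pseudocount of 2, the counts were 1 for warmth in pif457, 2 for hyl1-2 against Col-0 at 27 °C (0) and 5 for dcl1-24/hyl1-2 against hyl1-2 at 27 °C (8). Without the filter, which adds genes to the test, they were 13 for warmth in Col-0, 19 for warmth in MIM156 (12) and 3 for MIM156 against Col-0 at 21 °C (0). By edgeR they were 6 for warmth in pif457 and 0 for MIM156 against Col-0 at 27 °C (1), where nuclear totals also gave 0. Median-of-ratios scaling gave 21 for dcl1-24/hyl1-2 against hyl1-2 at 21 °C (13). With replicate number as a block, no call was lost in any comparison. The counts were 5 for dcl1-24/hyl1-2 against Col-0 at 21 °C (2) and 18 for the same at 27 °C (11). They were 16 for dcl1-24/hyl1-2 against hyl1-2 at 27 °C and 1 for hyl1-2 against Col-0 at 27 °C. For pif457 against Col-0 at 21 °C the block gave 36 (32), and for warmth in Col-0 it gave 10 (8). Where the numbers did not pair the libraries, the block gave 5 for warmth in pif457, 1 for MIM156 against Col-0 at 21 °C and 2 at 27 °C.

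Leaving out each library in turn gave 4 to 8 for warmth in Col-0, 0 to 2 in pif457, 5 to 20 in hyl1-2, 5 to 12 in dcl1-24/hyl1-2 and 5 to 20 in MIM156. Against Col-0 at 21 °C it gave 19 to 36 for pif457, 1 to 3 for hyl1-2, 0 to 2 for dcl1-24/hyl1-2 and 0 to 3 for MIM156, and at 27 °C 22 to 30, 0 to 1, 4 to 7 and 0 to 1. Against hyl1-2, dcl1-24/hyl1-2 gave 5 to 15 at 21 °C and 4 to 7 at 27 °C, and the interactions of hyl1-2 and MIM156 gave 0 to 1. No called member changed sign.

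In an alternative chosen after seeing the data, the summed level without ATMG00020 and ATMG01390 changed on the log2 scale by -0.28 for warmth in pif457 (exact permutation p = 0.2), 0.54 for hyl1-2 against Col-0 at 21 °C (p = 0.2), -3.20 for pif457 against Col-0 at 27 °C, -1.92 for dcl1-24/hyl1-2 against Col-0 at 27 °C and, against hyl1-2, -1.75 at 21 °C and -1.77 at 27 °C (p = 0.1 each). The fit without ribosomal RNA members was not run, since the annotation used here names ribosomal RNA genes of the mitochondrion but links none to a member ID. Reads shared with nuclear copies, and levels of a few reads for most members in pif457, limit what single members can show.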
